A study of Mus musculus with 9 samples.

Results

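The genes described here are 40 genes of mitosis, the division of the chromosomes and then of the cell, in mouse haematopoietic stem cells (HSCs). They were chosen by symbol, as a list of textbook mitosis genes. The rule used no measured value, but the list was drawn up with earlier results of these data known. All 40 were found among the 23317 genes of the deposited table, and all 40 passed the filter on low counts that left 14227 genes to be tested. The lowest count of any of them in any library was 174 (Cdc25b) and the highest was 9444 (Bub3). The study sequenced RNA at low input from HSCs that had been sorted out of wild-type mouse bone marrow, with 9 libraries in 3 groups. The groups were young HSC, old HSC without the inhibitor, and old HSC treated with ABC294640, an inhibitor of sphingosine kinase 2 (SphK2), with 3 libraries in each. The protocols give ages of 2 to 4 and of 20 to 24 months, read here as those of the young and the old mice. Each library was made from 1500 sorted cells by full-length amplification of polyadenylated RNA. The labels give neither the sort markers nor the dose, route or length of the treatment, and state no other agent or allele. Nothing states that the libraries came from separate animals, so the spread that the p-values measure may be technical.

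HSCs divide rarely, while the progenitors they give rise to divide often. In a dividing cell the mitosis genes are switched on together in late S phase and G2. Cyclin-dependent kinase 1 with cyclin B drives entry into mitosis, Aurora and Polo kinases build the spindle, and the kinetochore joins chromosomes to it. The spindle checkpoint holds the anaphase-promoting complex, a ubiquitin ligase, in check until every chromosome is attached. That ligase then destroys cyclin B and securin, and the cell divides. Many promoters of these genes hold CCAAT boxes, bound by the factor NF-Y, and a cell cycle homology region read by the DREAM and MuvB complexes, whose core letters are TTTGAA or TTCGAA.

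Promoters are shown for the 6 genes with the smallest p in old against young HSC that have one in the RefSeq table, and for Top2a, which went the other way. A window was found for 33 of the 40 genes (RefSeq, GRCm38.p6). Of the others, Aurkb, Ccna2, Cdc25c, Dlgap5, Incenp, Kif20a and Tpx2, no sequence is shown. Each sequence runs 5′ to 3′ on the strand of the gene, from 200 bases before its start to 50 bases after. Capitals mark TTTGAA or TTCGAA, and also CCAAT, read on either strand.
Ccnb1, chr13:100786437-100786686, minus strand: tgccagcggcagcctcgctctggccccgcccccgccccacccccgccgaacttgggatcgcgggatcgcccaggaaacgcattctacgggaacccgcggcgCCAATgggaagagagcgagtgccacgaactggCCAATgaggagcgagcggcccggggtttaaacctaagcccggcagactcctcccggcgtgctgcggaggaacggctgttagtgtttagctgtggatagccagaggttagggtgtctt
Aurka, chr2:172370521-172370770, minus strand: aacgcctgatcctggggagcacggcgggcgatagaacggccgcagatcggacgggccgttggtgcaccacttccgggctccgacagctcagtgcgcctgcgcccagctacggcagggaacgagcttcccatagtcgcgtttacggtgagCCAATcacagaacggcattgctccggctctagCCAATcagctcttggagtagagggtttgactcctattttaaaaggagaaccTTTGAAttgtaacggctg
Ccnb2, chr9:70421505-70421754, minus strand: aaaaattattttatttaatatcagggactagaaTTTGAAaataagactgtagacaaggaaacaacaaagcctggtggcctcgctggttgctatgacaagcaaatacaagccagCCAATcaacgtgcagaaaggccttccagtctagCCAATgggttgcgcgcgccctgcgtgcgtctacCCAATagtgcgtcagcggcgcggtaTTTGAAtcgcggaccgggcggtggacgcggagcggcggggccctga
Cdca8, chr4:124936868-124937117, minus strand: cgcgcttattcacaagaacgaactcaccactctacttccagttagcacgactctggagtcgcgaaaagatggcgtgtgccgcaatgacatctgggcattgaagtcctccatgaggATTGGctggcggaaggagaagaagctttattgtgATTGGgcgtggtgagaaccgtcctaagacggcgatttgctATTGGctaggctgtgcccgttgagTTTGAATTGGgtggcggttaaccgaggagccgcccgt
Plk1, chr7:122159235-122159484, plus strand: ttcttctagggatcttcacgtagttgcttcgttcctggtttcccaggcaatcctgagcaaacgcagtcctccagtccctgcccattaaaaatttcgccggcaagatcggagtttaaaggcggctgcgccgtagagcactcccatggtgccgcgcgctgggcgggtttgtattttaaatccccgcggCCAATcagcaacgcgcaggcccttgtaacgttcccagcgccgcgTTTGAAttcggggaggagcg
Ect2, chr3:27153829-27154078, minus strand: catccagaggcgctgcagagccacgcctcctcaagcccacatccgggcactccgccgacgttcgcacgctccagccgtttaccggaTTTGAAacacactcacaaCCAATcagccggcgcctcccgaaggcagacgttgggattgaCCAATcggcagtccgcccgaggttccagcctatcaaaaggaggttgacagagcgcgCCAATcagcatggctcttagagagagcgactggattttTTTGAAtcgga
Top2a, chr11:99024140-99024389, minus strand: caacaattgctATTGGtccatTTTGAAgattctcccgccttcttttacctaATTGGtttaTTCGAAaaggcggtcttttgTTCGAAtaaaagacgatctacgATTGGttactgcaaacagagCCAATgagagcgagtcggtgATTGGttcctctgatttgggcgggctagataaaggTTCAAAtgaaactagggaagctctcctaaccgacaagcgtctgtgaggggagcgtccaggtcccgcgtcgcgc

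In the Cdca8 window a match of TTTGAA shares 1 base with a CCAAT box of the other strand. Over the whole window of 250 bases before to 50 after the start, TTTGAA or TTCGAA occurred on either strand in 27 of the 33 promoters (81.8%). The same letters occurred in 14.8% of 10991 promoters of tested genes and in 19.4% of all 27025 promoters. CCAAT occurred in 25 of the 33 (75.8%), against 39.1% of the promoters of tested genes and 37.9% of all promoters. Both kinds occurred together in 23 of the 33 (69.7%), against 6.22% and 7.7%. The Ccnb1 window held CCAAT 2 times and neither TTTGAA nor TTCGAA, and that of Top2a held both kinds. These are counts of letters, not of sites in use. Both kinds were found in 15 of 22 promoters of genes that rose with age and in 7 of 10 of genes that did not pass the test.

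Levels are given in CPM, each gene's count relative to its library total as scaled by TMM. Library totals ran from 16663445 to 23254115 counts. The 40 genes summed to 4410.4 to 4482 CPM in the young libraries, 5228 to 5254 CPM in the old ones and 5235 to 5283 CPM in the treated old ones. The young libraries were thus all below the 6 old ones, and the old and treated old libraries overlapped. All 11 HSC markers examined were detected in every library, some at low levels: Kit, the stem cell factor receptor, was at 119 ± 4.56 CPM (SD, n = 3) in young HSC, Slamf1 at 7.71 ± 1.34 CPM, Procr at 3.89 ± 0.203 CPM and Fgd5 at 1.27 ± 0.112 CPM. The granulocyte gene Mpo was at 11260.1 ± 475 CPM in the same libraries. Of the Y chromosome, Ddx3y averaged 0.936 CPM in young and 38.9 CPM in old HSC and Eif2s3y 2.55 and 78.1 CPM, so that wherever young libraries enter a comparison, age and the sex read from these genes cannot be told apart.

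Per kilobase of merged exons, the level of Ccnb2 in young HSC was the highest of the 40, at 147 CPM per kilobase. Those of Ube2c (120.2), Birc5 (103), Cdc20 (74.1) and Ccnb1 (65.7) came next on that scale. The lowest were Cenpf (2.59), Anln (2.79) and Cdc25b (3.41), so that the levels spanned 56.9-fold. The coefficient of variation of CPM between the 3 libraries of a group had a median over the 40 genes of 5.31% in young, 3.77% in old and 3.49% in treated old HSC, and was at most 11.4% for any gene and group.

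Old HSC were first set against young HSC, which asks which mitosis genes differ with age. Most of the 40 genes were higher in old HSC, by modest amounts. With edgeR's quasi-likelihood test and Benjamini-Hochberg adjustment over all 14227 genes, 27 of the 40 rose, 1 fell (Top2a) and 12 did not pass an adjusted p of 0.05. Among all genes tested, 19.6% rose and 19.8% fell. The median log2 fold change of the 40 genes was 0.24, against -0.03 over all genes tested. The rises that passed ran from a log2 fold change of 0.11 (Birc5, 1.08-fold) to 0.52 (Ccnb1, 1.43-fold). In 28 of the 40 genes every old library was above every young one, and in 2 every old library was below, against 22.8% and 25.6% of all genes tested. In bulk RNA, a larger share of dividing cells and more of these transcripts per dividing cell cannot be told apart.

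**Figure D1:**
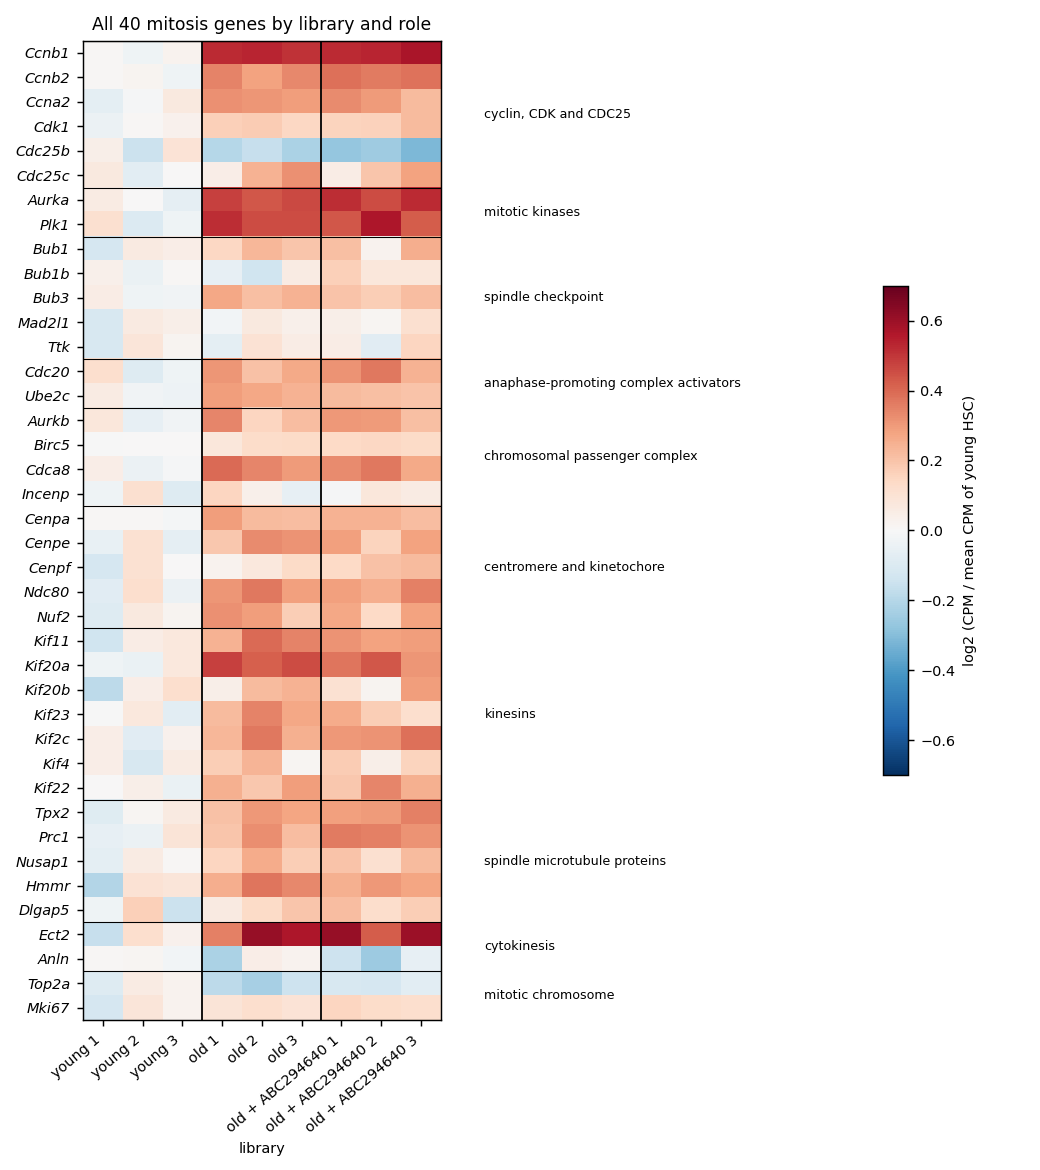
Level of each of the 40 mitosis genes (vertical axis, grouped by role) in each of the 9 libraries (horizontal axis), as the log2 ratio of its CPM to the mean CPM of the 3 young libraries. Red is above and blue below the young mean, and most genes are red in all 6 old libraries, with Top2a and Cdc25b blue.

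Of the 6 genes for cyclins, CDK1 and its CDC25 phosphatases, 5 rose and Cdc25b did not pass. Ccnb1 encodes cyclin B1 (ENSMUSG00000041431, chr13:100778650-100786570 in GRCm38), the partner of CDK1 at the entry into mitosis. Its level was 278, 271 and 282 CPM in the 3 young libraries and 398, 400.0 and 393 CPM in the 3 old ones, a log2 fold change of 0.52 ± 0.041 (SE, adjusted p = 2.57e-09 by edgeR). Every old library was above every young one. Ccnb2, the second B-type cyclin (ENSMUSG00000032218, chr9:70407692-70421547), was at 226, 229 and 221 CPM in young and 287, 274 and 285 CPM in old HSC (log2 fold change 0.32 ± 0.042, adjusted p = 3.66e-06 by edgeR). Cdk1 itself (ENSMUSG00000019942, chr10:69335146-69352938) was at 212, 219.8 and 223 CPM in young and 245, 247 and 241 CPM in old HSC (log2 fold change 0.16 ± 0.043, adjusted p = 0.00547). The groups did not overlap for either gene, and the difference of Cdk1 was the smaller. With library totals alone as the scaling, Cdk1 did not pass (log2 fold change 0.08, adjusted p = 0.164). Ccna2, cyclin A2, which acts from S phase to early mitosis, rose by 0.31 on the log2 scale. Cdc25c, a phosphatase that activates CDK1, rose by 0.21 (adjusted p = 0.0393 by edgeR) although its lowest old library, at 34.4 CPM, was below its highest young one, at 34.9 CPM. Its relative Cdc25b was at 12.7 ± 1.10 CPM in young and 11.1 ± 0.251 CPM in old HSC (SD, n = 3), with all 3 old libraries below the young ones and an adjusted p of 0.119.

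Aurka and Plk1, kinases listed here apart from those of the checkpoint and the passenger complex, both rose. Aurka, Aurora A, which matures centrosomes and assembles the spindle (ENSMUSG00000027496, chr2:172356190-172370535), was at 92.7, 89.1 and 85.2 CPM in young and 124, 120.3 and 122 CPM in old HSC (log2 fold change 0.46 ± 0.048, adjusted p = 2.14e-07 by edgeR). Plk1, Polo-like kinase 1, which acts at centrosomes, kinetochores and the midzone (ENSMUSG00000030867, chr7:122159439-122169873), was at 36.6, 31.7 and 33.2 CPM in young and 48.4, 46.4 and 46.5 CPM in old HSC. Its log2 fold change was 0.47 ± 0.067 (adjusted p = 1.04e-05 by edgeR), and for both kinases no young library reached the lowest old one.

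Of the 5 spindle checkpoint genes, 1 rose, which is close to the 19.6% of all genes tested that rose. That gene was Bub3, which brings checkpoint kinases to kinetochores (ENSMUSG00000066979, chr7:131560222-131571895). Bub3 was at 392, 371 and 372 CPM in young and 456, 438 and 448 CPM in old HSC (log2 fold change 0.24 ± 0.041, adjusted p = 9.93e-05 by edgeR), with no overlap. Its partner kinase gene Bub1 had a log2 fold change of 0.19 and an adjusted p of 0.0643. Bub1b, which encodes the checkpoint protein BubR1, had -0.05 (95% interval -0.20 to 0.10). Mad2l1, which encodes the inhibitor Mad2, had 0.03 (-0.08 to 0.14), and Ttk, the kinase Mps1, 0.03 (-0.14 to 0.21). Young and old libraries overlapped for Bub1b, Mad2l1 and Ttk. Whether checkpoint genes differed from the other roles was not tested.

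Both genes of this list that work with the anaphase-promoting complex rose. Cdc20, its activator at anaphase and the target of the checkpoint (ENSMUSG00000006398, chr4:118432901-118437352), was at 149.8, 129.9 and 135 CPM in young and 172, 159 and 166 CPM in old HSC (log2 fold change 0.26 ± 0.055, adjusted p = 0.000818 by edgeR). Ube2c, the ubiquitin-conjugating enzyme of that complex (ENSMUSG00000001403, chr2:164769898-164778822), was at 325, 307 and 305 CPM in young and 383, 377 and 369 CPM in old HSC (log2 fold change 0.27 ± 0.042, adjusted p = 3.67e-05 by edgeR). Neither gene overlapped between the groups.

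The chromosomal passenger complex corrects faulty attachments and directs the cleavage of the cell, and 3 of its 4 genes rose. Cdca8, the scaffold Borealin (ENSMUSG00000028873, chr4:124918465-124939311), was at 229, 215 and 219.8 CPM in young and 292, 281 and 272 CPM in old HSC (log2 fold change 0.35 ± 0.046, adjusted p = 4.8e-06 by edgeR). Aurkb, Aurora B, the kinase of the complex (ENSMUSG00000020897, chr11:69045647-69051664), was at 123, 112 and 114 CPM in young and 147, 129 and 135 CPM in old HSC (log2 fold change 0.24 ± 0.055, adjusted p = 0.002 by edgeR). Both were higher in each old library than in any young one. Birc5, which encodes Survivin, had the smallest rise that passed (0.11, adjusted p = 0.0284 by edgeR). Incenp, which anchors the kinase, had a log2 fold change of 0.05 (95% interval -0.10 to 0.19) with overlapping libraries.

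Of the 5 centromere and kinetochore genes, 4 rose. They were Cenpa, the histone H3 variant of centromeres (log2 fold change 0.24), Cenpe, a kinetochore motor (0.28), and Ndc80 (0.32) and Nuf2 (0.26), which together bind the microtubule. Cenpf, a large kinetochore protein gene, was at 36.8, 43.1 and 40.0 CPM in young and 40.7, 42.0 and 43.8 CPM in old HSC, with overlap, and had 0.08 ± 0.066 (adjusted p = 0.362 by edgeR). Of the 7 kinesin genes, 5 rose. Kif20a, a kinesin of the central spindle (ENSMUSG00000003779, chr18:34624613-34633277), was at 48.6, 48.0 and 52.2 CPM in young and 69.2, 66.3 and 68.1 CPM in old HSC (log2 fold change 0.45 ± 0.056, adjusted p = 1.93e-06 by edgeR), with no overlap. The others that rose were Kif11, which pushes spindle poles apart (0.33), Kif2c, which depolymerizes microtubules (0.29), Kif23, a motor of the central spindle (0.28), and Kif22, which moves chromosome arms (0.24). Kif20b (0.17) and the chromosome-bound Kif4 (0.15) had positive values that did not pass (adjusted p = 0.101 and 0.16 by edgeR). Of the 5 spindle microtubule proteins, 4 rose: Hmmr (0.32), Tpx2, an activator of Aurora A (0.26), Prc1, which bundles midzone microtubules (0.25), and Nusap1 (0.20). Dlgap5 had 0.13 (adjusted p = 0.196 by edgeR).

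The last 4 genes act in cytokinesis or on mitotic chromosomes. Ect2, which activates RhoA at the cleavage furrow (ENSMUSG00000027699, chr3:27097222-27153878), was at 39.0, 47.4 and 44.6 CPM in young and 55.7, 66.6 and 64.8 CPM in old HSC (log2 fold change 0.52 ± 0.077, adjusted p = 2.2e-05 by edgeR). Its groups did not overlap, and its old libraries spread more widely than those of Ccnb1. Anln, anillin, which scaffolds the contractile ring, had -0.04 (95% interval -0.21 to 0.12) and overlapped. Top2a, topoisomerase II alpha, which untangles sister chromatids (ENSMUSG00000020914, chr11:98992943-99024189), was at 195, 217 and 212 CPM in young and 183, 177 and 188 CPM in old HSC. All 3 old libraries were below the young ones, and the gene fell by a log2 fold change of -0.19 ± 0.048 (adjusted p = 0.00391 by edgeR). Mki67, the proliferation marker Ki-67, which coats mitotic chromosomes (ENSMUSG00000031004, chr7:135689784-135716361), was at 127, 146 and 140.3 CPM in young and 147, 150.1 and 147 CPM in old HSC. The old libraries lay just above the young ones, at a log2 fold change of 0.10 ± 0.05 and an adjusted p of 0.111. Without young replicate 2 the value was 0.16 (adjusted p = 0.0295 by edgeR).

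**Figure D2:**
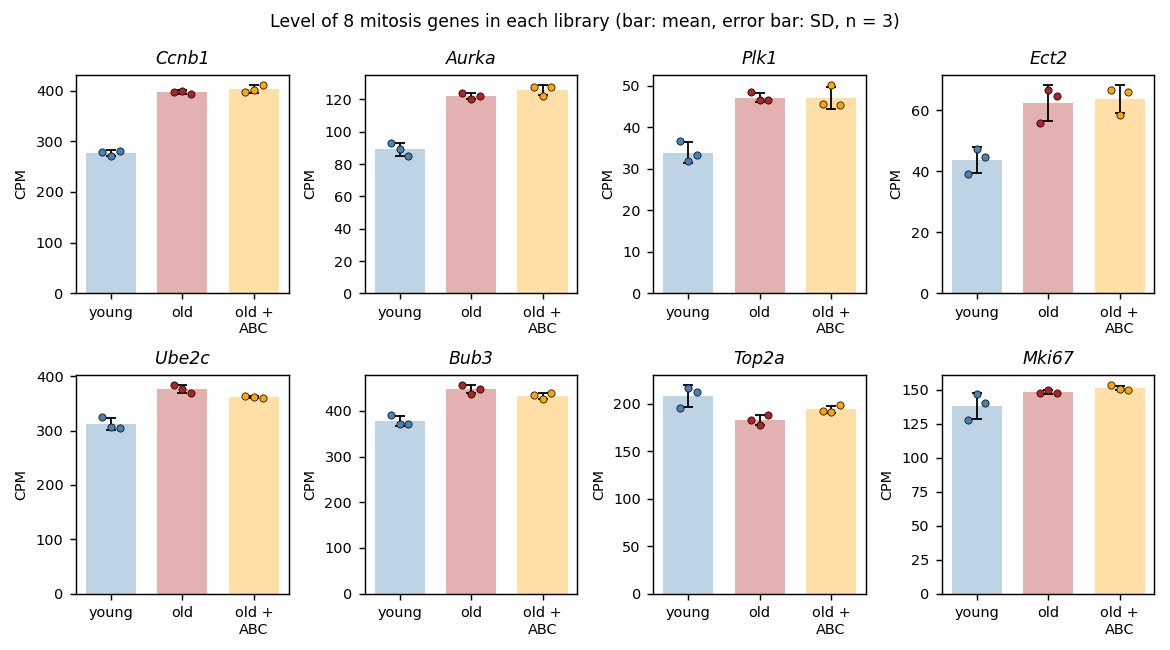
CPM (vertical axis, from 0) of 8 mitosis genes in each library of young, old and ABC294640-treated old HSC (horizontal axis). Points are libraries, bars are means and error bars are SD (n = 3). The old and treated old libraries of Ccnb1, Aurka, Plk1, Ect2, Ube2c and Bub3 sit above the young ones, those of Top2a lie lower in old HSC, and Mki67 differs little.

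The share that rose was lower at longer transcripts, among the 40 genes as among all genes tested. Of the 11 genes whose longest transcript is under 3000 bases, 10 rose, against 23.8% of all genes tested of that length. Of the 23 from 3000 to 5000 bases, 16 rose, against 20.1%. Of the 6 of 5000 bases and over, 1 rose (Cenpe) and 1 fell (Top2a), against 10.9% and 27.2%, and the rest were Mad2l1, Cenpf, Kif20b and Mki67. By calls alone, the 6 genes of that longest class were thus close to the background of their length, while their median log2 fold change was above it. Across the 40 genes, which share the 9 libraries, Spearman's rho between longest transcript and log2 fold change was -0.35, and across the 14221 tested genes with a length it was -0.14. From the shortest to the longest of the 3 length classes, the median log2 fold change was 0.29, 0.24 and 0.09 among the 40 genes. Among all tested genes it was 0.01, -0.02 and -0.14. The counts were therefore also fitted after the trends with length and GC content within each library were taken out, a setting chosen after seeing the data. In that fit 32 of the 40 rose and 2 fell (Top2a and Cdc25b), against 23.3% and 22.1% of all genes tested. Of the 27 that rose before, 26 rose in it, all but Birc5. Cenpf, Mad2l1, Bub1, Kif4, Mki67 and Kif20b were added, with Mki67 at a log2 fold change of 0.34 ± 0.041 (adjusted p = 3.09e-07 by edgeR) and Cenpf at 0.36. Top2a had -0.11 (adjusted p = 0.0262 by edgeR). For Mad2l1 the longest annotated transcript need not be the one in use.

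**Figure D3:**
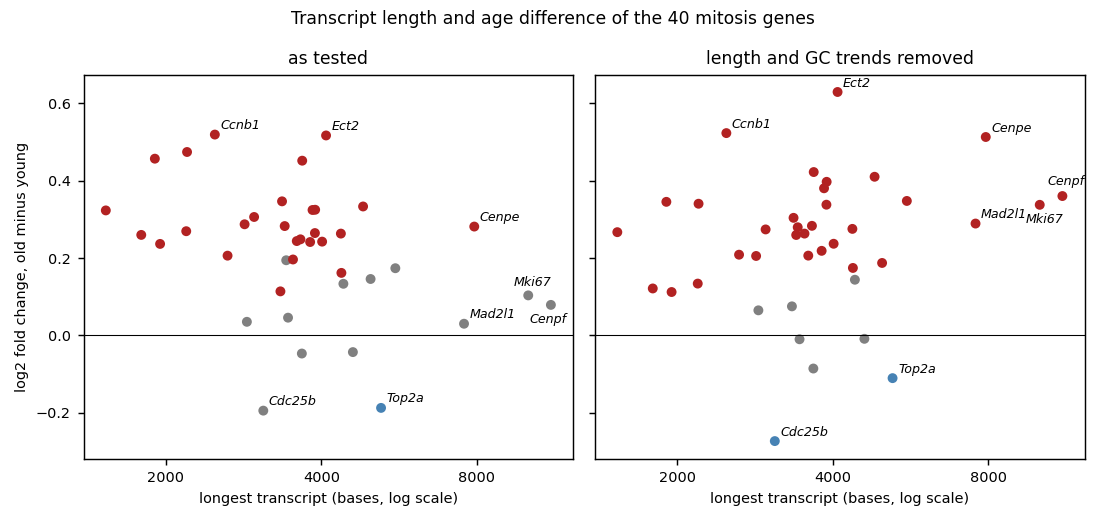
Log2 fold change of old against young HSC (vertical axis) and longest annotated transcript in bases (horizontal axis, log scale) of the 40 mitosis genes, as tested (left) and with the length and GC trends removed (right). Red genes rose, blue fell and grey did not pass. On the left Mad2l1, Cenpf and Mki67 lie close to 0, while on the right they lie among the genes that rose.

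Some of these counts may hold reads of other genes, since the labels do not say whether counting was stranded. The measure was the share of the 31-base words of a gene's exons that also occur in another gene. It was at least 20% for 4 of the 40 genes and under 5% for 27. Ccnb1 shared 27.8% of its words, mostly with processed pseudogenes, of which Ccnb1-ps and Gm12856 were each under 0.5 CPM. The exons of Kif20a overlap 1271 bases of those of Cdc23, a subunit gene of the anaphase-promoting complex on the opposite strand, at 52.9 CPM in young and 55.5 CPM in old HSC. With both genes summed the log2 fold change was 0.27 (adjusted p = 0.000102 by edgeR), against 0.45 for Kif20a alone. Ccna2 overlaps Exosc9, and their sum rose by 0.32. Cdc20 (26.7%) and Ube2c (25.3%) share words with a pseudogene and with Tnnc2, both near 0 CPM. With every member summed with such partners, a setting chosen after seeing the data, 27 still rose and 1 fell.

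A further list of 126 genes of mitosis had 124 in the table, and these 124 were tested. Of them 41 rose and 8 fell (33.1% and 6.45%), against 19.6% and 19.8% of all genes tested, and the median log2 fold change was 0.09. With library totals alone 24 rose and 13 fell, against 13.1% and 27.6%, and with the length and GC trends removed 66 rose and 10 fell, against 23.3% and 22.1%. The difference between these genes and the 40 was not tested. Condensin genes, which compact chromosomes, had the highest share, with 7 of 8 higher. Ncapd3, a condensin II subunit, was at 43.7, 45.2 and 44.5 CPM in young and 61.4, 59.2 and 58.5 CPM in old HSC (log2 fold change 0.43 ± 0.054, adjusted p = 3.18e-06 by edgeR). Of 34 further spindle, centrosome and midbody genes, 12 rose and 4 fell. Tacc3, which stabilizes spindle microtubules, was at 138, 153 and 150.2 CPM in young and 201, 204 and 205 CPM in old HSC (log2 fold change 0.47 ± 0.047, adjusted p = 1.09e-07 by edgeR). Tubb4b, a beta tubulin, was at 441, 415 and 421 CPM and 574, 531 and 556 CPM (0.38 ± 0.043, adjusted p = 5.82e-07 by edgeR). None of these 3 genes overlapped between the groups.

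Of 32 further kinetochore genes, 10 rose and 1 fell. Of 17 genes of the anaphase-promoting complex and its inhibitors, 5 rose and 2 fell. Of 14 genes of cohesin and its release, 2 rose and 1 fell, shares close to or under the background. The gene that fell was Pttg1, securin, which blocks separase until anaphase. Pttg1 was at 90.7, 86.6 and 86.4 CPM in young and 64.5, 64.0 and 65.4 CPM in old HSC (log2 fold change -0.44 ± 0.05, adjusted p = 6.07e-07 by edgeR). The transcripts of securin and cyclin B1 thus went opposite ways. The ligase that destroys both acts on the proteins, which were not measured. Of 19 genes of mitotic entry and transcription, 5 rose and none fell, with 26.3% rising against 19.6% of all genes. Mybl2, B-Myb, the transcription factor of the MuvB complex, was at 22.0, 18.0 and 17.5 CPM in young and 28.9, 27.3 and 28.2 CPM in old HSC (log2 fold change 0.55 ± 0.084, adjusted p = 2.99e-05 by edgeR). Foxm1, the factor that joins MuvB in G2, was at 9.79, 9.32 and 11.6 CPM and 9.12, 8.76 and 8.69 CPM (-0.21 ± 0.12, adjusted p = 0.164 by edgeR). Mybl2 was thus higher and Foxm1 did not pass, with all its old libraries below the young ones.

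Of 46 genes of S phase and DNA replication, 10 rose and 4 fell (21.7% and 8.7%), against 19.6% and 19.8% of all genes tested. By calls, the share that rose was thus close to the background. In 18 of the 46 every old library was above every young one, and in 8 every old library was below. Of all genes tested, 22.8% and 25.6% were so. The 46 genes summed to 5508 to 5540 CPM in the young libraries and 5886 to 5919 CPM in the old ones, without overlap. Their median log2 fold change was 0.07, and the 2 with the smallest p were Rrm2 and Mcm4. Rrm2, the small subunit of ribonucleotide reductase, was at 218, 231 and 231 CPM in young and 380.1, 382 and 380.3 CPM in old HSC (log2 fold change 0.75 ± 0.042, adjusted p = 1.29e-11 by edgeR). Mcm4, of the replicative helicase, was at 101, 104 and 112 CPM and 139.8, 140.0 and 135 CPM (0.39 ± 0.052, adjusted p = 5.66e-06 by edgeR). Of 6 CDK inhibitor genes tested of 8 listed, 4 rose and none fell (66.7% and 0%), against 19.6% and 19.8% of all genes tested. In 4 of the 6 every old library was above every young one. In the other 2, Cdkn1b and Cdkn2c, every old library was below, and neither passed. Cdkn1c, which rose, was low, at 2.35 CPM on average in young and 3.84 CPM in old HSC. Whether the mitosis genes differed from the S phase genes was not tested.

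**Figure D4:**
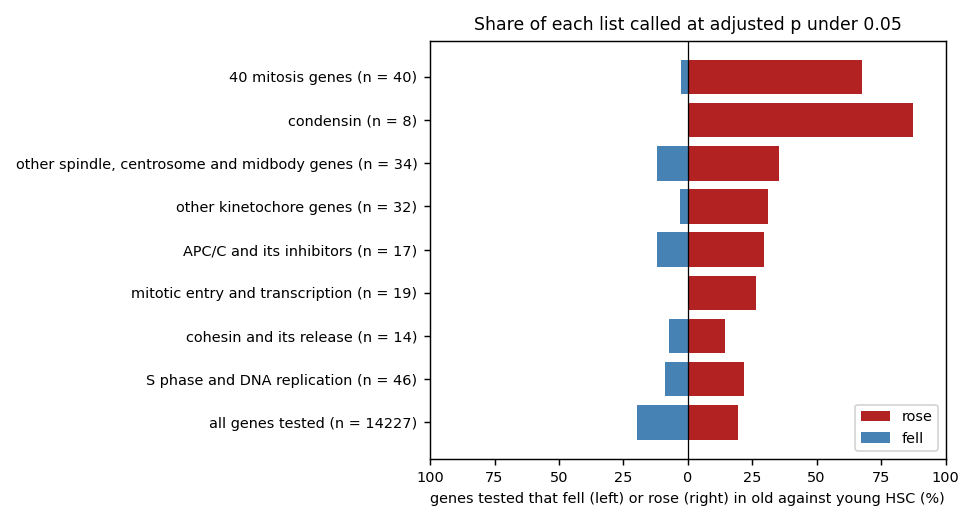
Share of the tested genes of each list (vertical axis, with n) that rose (red, to the right) or fell (blue, to the left) in old against young HSC, in percent (horizontal axis). The 40 mitosis genes have 67.5% that rose and 2.5% that fell, against 19.6% and 19.8% of all genes tested.

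Some markers of other cell types also differed in this comparison, in which 19.6% of all genes tested rose and 19.8% fell. These lists are short, and some of their shares lay near that background. Examples are the 16.7% of B and plasma cell markers that fell and the 20% of mast cell and basophil markers that rose. Of 9 markers of granulocyte and monocyte progenitors, 6 rose and 3 fell, and their summed level was 32528 to 36724 CPM in young, 47374 to 50133 CPM in old and 46804 to 47948 CPM in treated old HSC. Most of that sum was Mpo and Elane, granule enzymes that averaged 11260.1 and 11144 CPM in young and 16797 and 16256 CPM in old HSC. The 3 that fell, named after their values were seen, were Irf8, a transcription factor of monocytes and dendritic cells, from 120.4 to 47.4 CPM, the monocyte surface gene Ly6c2, from 2723 to 1858 CPM, and the macrophage growth factor receptor Csf1r, from 15.8 to 9.73 CPM. Of 7 late neutrophil markers, 6 rose, and they summed to 5001 to 5164, 8095 to 9104 and 8571 to 8717 CPM. All 7 erythroid markers fell, from 841 to 881 CPM to 373 to 378 CPM, with 422 to 424 CPM in treated old HSC. Of 6 megakaryocyte markers 4 fell, from 451 to 492 CPM to 225 to 253 CPM, with 292 to 309 CPM in treated old HSC. Of the 11 HSC markers, 1 rose and 6 fell, and their sum was 436 to 444 CPM in young, 366 to 371 CPM in old and 372 to 384 CPM in treated old HSC. Of 6 markers of B and plasma cells tested, 2 rose and 1 fell, and the list summed to 249.5 to 279.9 CPM in young, 614 to 696 CPM in old and 579.9 to 602 CPM in treated old HSC. The 2 that rose, named after their values were seen, were Igkc, an immunoglobulin light chain, from 165 to 533 CPM, and the plasma cell gene Jchain, from 30.1 to 67.5 CPM. Of 3 T and NK cell markers tested, 1 rose and 2 did not pass, with a median log2 fold change of -0.33. The list summed to 1324 to 1479, 1731 to 1888 and 1896 to 2064 CPM, nearly all of it Nkg7, a granule gene of cytotoxic cells. Nkg7 was the gene that rose, from 1381 to 1825 CPM. Cd3d averaged 5.53 CPM in young and 4.37 CPM in old HSC, Cd3g 0.347 and 0.0800 CPM, and Ncr1 0.682 and 0.327 CPM. Of 5 mast cell and basophil markers 1 rose and 4 fell, and of 5 stromal and endothelial ones 2 fell. Their sums were 229 to 239 and 39.1 to 45.5 CPM in young and 199.7 to 206 and 30.0 to 36.7 CPM in old HSC. The defining T cell gene Cd3e was at 0.0356 CPM, the B cell gene Pax5 at 0.0727 CPM and the endothelial gene Cdh5 at 0.1 CPM on average in old HSC. Each was the lowest of its list there. Other genes of these lists were higher, such as Cd79b of the B cell list at 60.8 CPM and Pecam1 of the endothelial list at 29.0 CPM. The part of these other cells in the levels of the mitosis genes was not tested.

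Treated old HSC were then set against untreated old HSC, which asks which mitosis genes differ with ABC294640. None of the 40 genes passed the threshold by edgeR. Among all genes tested 0.766% rose and 0.429% fell, and a count of 0 of 40 is close to that background. By DESeq2 and limma-voom the count was 0 as well. At an unadjusted p under 0.05 there was 1 gene by edgeR (8.83% of all genes tested), 0 by DESeq2 and 1 by limma-voom. The log2 fold changes ran from -0.10 (Anln) to 0.16 (Bub1b), with a median of 0.00, and 19 were positive and 21 negative. The 95% intervals of all 40 lay within -0.30 and 0.31, a range of 0.814- to 1.24-fold.

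The 6 genes with the smallest p in this comparison were Bub1b, Top2a, Prc1, Cenpf, Kif23 and Kif20a. Bub1b, the BubR1 gene, was at 26.8, 25.4 and 29.1 CPM in untreated and 31.3, 29.5 and 29.5 CPM in treated old HSC. The treated libraries were all above the untreated ones (log2 fold change 0.16 ± 0.072, adjusted p = 0.535 by edgeR), and this was the gene with an unadjusted p under 0.05. Top2a was at 183, 177 and 188 CPM in untreated and 192, 192 and 198 CPM in treated old HSC, again without overlap (0.09 ± 0.048, adjusted p = 0.653 by edgeR). Cenpf was at 40.7, 42.0 and 43.8 CPM and 44.0, 46.1 and 46.6 CPM (0.11 ± 0.067, adjusted p = 0.682 by edgeR), the treated libraries lying just above. Prc1 was at 90.2, 98.9 and 91.8 CPM in untreated and 101, 101 and 98.0 CPM in treated old HSC (0.10 ± 0.054, adjusted p = 0.665 by edgeR). Kif23 was at 58.7, 64.1 and 60.7 CPM and 60.3, 56.7 and 54.7 CPM (-0.10 ± 0.06, adjusted p = 0.693 by edgeR), and Kif20a at 69.2, 66.3 and 68.1 CPM and 64.4, 67.1 and 61.5 CPM (-0.08 ± 0.056, adjusted p = 0.771 by edgeR). Prc1, Kif23 and Kif20a overlapped between the groups. Over the 40 genes, every treated library was above every untreated one in 4 and below in 2, against 8.34% and 7.13% of all genes tested.

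Ccnb1 was at 398, 400.5 and 411 CPM in the treated libraries (0.02 ± 0.04 against untreated old HSC, 95% interval -0.06 to 0.11). Aurka was at 127, 122 and 128 CPM (0.04 ± 0.048), Plk1 at 45.7, 50.1 and 45.4 CPM (-0.00 ± 0.066) and Ect2 at 66.7, 58.6 and 66.1 CPM (0.03 ± 0.076). For these 4 genes treated and untreated libraries overlapped. Ube2c was at 364, 362 and 359 CPM, each library just below the untreated ones (-0.06 ± 0.042, adjusted p = 0.774 by edgeR). Of the other 124 mitosis genes 1 rose and none fell by edgeR (0.806% and 0%), close to the 0.766% and 0.429% of all genes tested. The gene that rose was Anapc13, a small subunit of the anaphase-promoting complex, at 76.8, 66.6 and 78.0 CPM in untreated and 96.8, 93.6 and 84.6 CPM in treated old HSC (log2 fold change 0.31 ± 0.067, adjusted p = 0.0188 by edgeR). It did not pass without old replicate 2 (adjusted p = 0.164), treated replicate 1 (0.175) or treated replicate 2 (0.129). Of the 46 S phase genes 1 rose and none fell (2.17% and 0%), on the same background. The S phase gene that rose was Pola2, a subunit of DNA polymerase alpha, from 202, 243 and 229.9 CPM to 292, 278 and 251 CPM (0.28 ± 0.062, adjusted p = 0.027 by edgeR). It did not pass without old replicate 1 (adjusted p = 0.201) or 3 (0.0607), or without treated replicate 1 (0.256) or 2 (0.174).

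**Figure D5:**
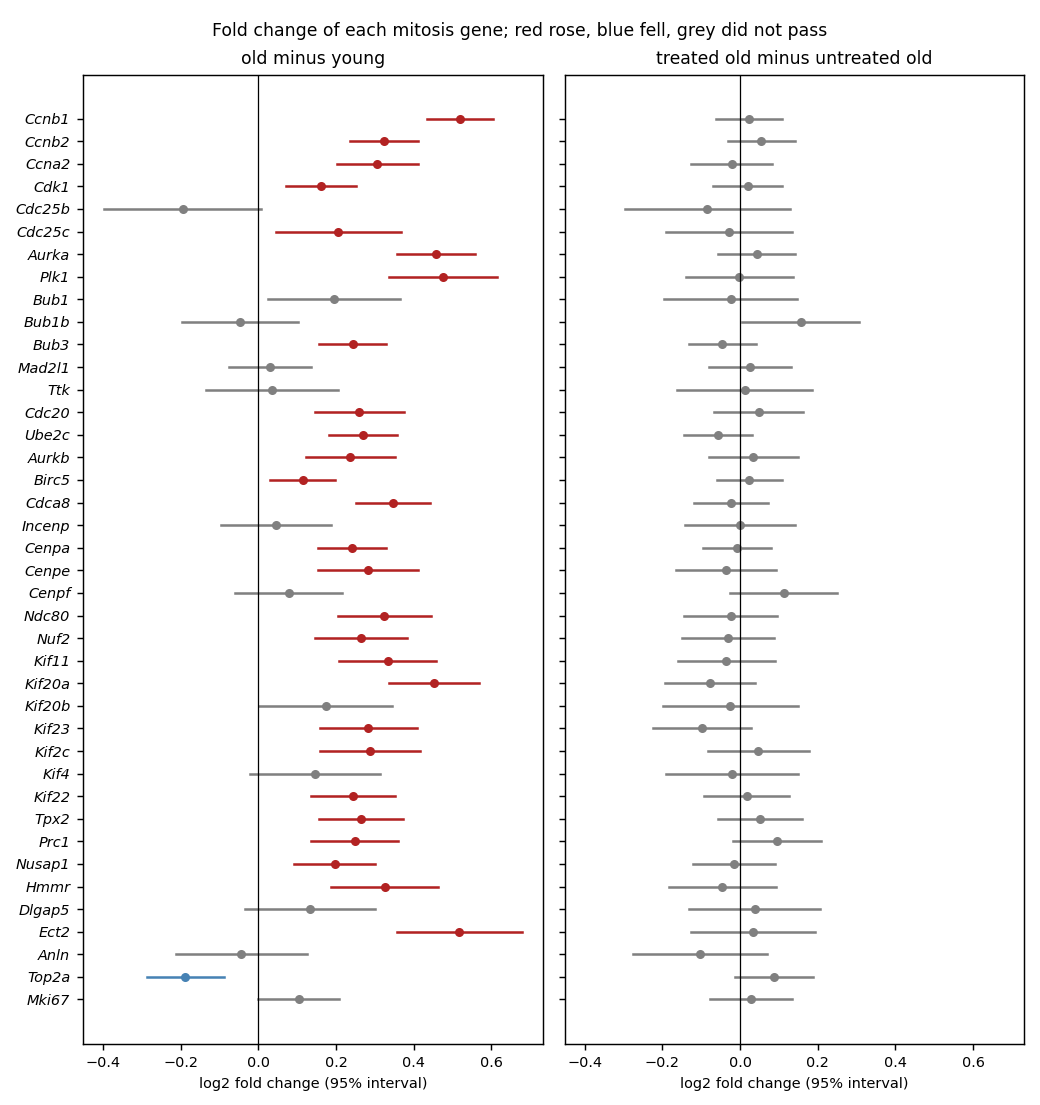
Log2 fold change (points, horizontal axis) with 95% interval (lines) of each of the 40 mitosis genes (vertical axis, in order of role) in old against young HSC (left) and in treated against untreated old HSC (right). Red genes rose, blue fell and grey did not pass. On the left 27 genes are red and 1 is blue, and on the right all 40 are grey and within -0.30 and 0.31.

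Set against young HSC, treated old HSC had 28 of the 40 genes that rose and 1 that fell, against 19.1% and 18.5% of all genes tested. This comparison shares its young libraries with the age comparison. Of the 27 genes that rose in untreated old HSC, 26 also rose in treated old HSC against the same young libraries. Cdc25c, the other one, had 0.18 (adjusted p = 0.0752 by edgeR). Cenpf, at 36.8, 43.1 and 40.0 CPM in young and 44.0, 46.1 and 46.6 CPM in treated old HSC, rose by 0.19 (adjusted p = 0.0275 by edgeR). Mki67, at 153, 151 and 149.9 CPM in treated old HSC, rose by 0.13 (adjusted p = 0.0446 by edgeR). Neither gene differed between treated and untreated old HSC past the threshold, and Mki67 did not pass without any 1 of the treated libraries (adjusted p = 0.0599 to 0.101) or without young replicate 1 (0.175) or 3 (0.062). It also missed the threshold with library totals alone (0.03, adjusted p = 0.676 by edgeR), with at least 5 CPM in 3 libraries (0.07, adjusted p = 0.26) and with the 2 groups alone (0.13, adjusted p = 0.0628). Top2a had -0.10 ± 0.048 (adjusted p = 0.104 by edgeR), and -0.19 in untreated old HSC. Without young replicate 1 Top2a passed, at -0.14 (adjusted p = 0.0133 by edgeR). It also passed by edgeR with library totals alone (-0.20, adjusted p = 0.00222) and with at least 5 CPM in 3 libraries (-0.16, adjusted p = 0.0123). The same held without young replicate 1 and old replicate 2 together (-0.145, adjusted p = 0.00437 by edgeR). The gene that fell was Cdc25b, at 13.1, 11.5 and 13.6 CPM in young and 10.6, 10.7 and 10.2 CPM in treated old HSC (-0.28 ± 0.098, adjusted p = 0.0304 by edgeR). It did not pass without young replicate 1 (adjusted p = 0.0751) or 3 (0.123), or without any 1 of the treated libraries (0.0655 to 0.0974).

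The scaling of the libraries bears on both age comparisons. With library totals alone in place of TMM, the median log2 fold change of all genes moved from -0.03 to -0.12 in old against young HSC. The 40 genes then had 23 that rose and 2 that fell (Cdc25b and Top2a), with 13.1% of all genes rising and 27.6% falling. In treated old against young HSC they had 19 that rose and 3 that fell (Anln, Cdc25b and Top2a), with 11.1% of all genes rising and 27.6% falling. All 23 and all 19 of these rises were among those called with TMM.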

How the data were processed

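RNA of sorted HSCs was measured in 9 libraries, in groups and replicate numbers taken from the sample labels. The values the authors deposited are expected counts (estimated reads of a gene in a library), of which 56.0% of those above 0 were exactly whole, and they were rounded before testing. Per the submitters' processing notes the authors used edgeR 3.24.3, HTSeq 0.10.0, STAR 2.6.1d and Trim Galore 0.6.2, in roles not stated, and the build mm10. No label or header says what made the fractional counts or whether strand was used. Reads from 12 cycles of PCR without molecular identifiers are not independent molecules. Totals of 16663445 to 23254115 counts gave every member at least 174 counts in each library.

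Genes were tested with edgeR 4.0.16 (R 4.3.3; TMM, default filter by group, quasi-likelihood test, 1 fit of 9 libraries with group as the only term), with Benjamini-Hochberg adjustment over 14227 genes and a threshold of 0.05. Log2 fold changes and standard errors are from that fit, and SDs are of CPM. The alternatives were DESeq2 1.42.0, limma-voom of limma 3.58.1, other scalings and filters, a replicate block, thinning to equal depth, the 2 groups alone and leaving out libraries. After seeing the data 3 were added: per-library trends with transcript length and GC content (loess, span 0.5) as offsets, centred per library so that TMM keeps the scaling; counts summed over genes that share at least 5% of a member's 31-base words; and young replicate 1 and old replicate 2 left out together, the libraries farthest from the others of their group. Scripts were tested on simulated data. Coordinates and lengths are from GENCODE mouse release 21 (GRCm38), and promoters from RefSeq. Tables were made with scipy 1.17.1, pandas 2.3.3 and numpy 2.4.6 in Python 3.11.15.

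The members, gene lists and tests were chosen with earlier results of these data known. Values in every library were given by rule for the 8 members with the smallest p with age and the 6 with treatment, members called against the common direction, 8 members by role (Ccnb1, Cdk1, Plk1, Aurkb, Cdc20, Bub3, Top2a and Mki67), up to 4 called other mitosis genes per comparison with Foxm1 and Mybl2, and 2 S phase genes per comparison, of which 1 is not reported here. Other genes were named after their values were seen. No replicates of a group were alike: they differed by a chi-square of 2.91 to 16.9 per degree of freedom over 5918 genes.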

Additional observations from a re-analysis of the deposited data

How the results depend on the processing

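Against young HSC, the members that rose numbered 23 to 32 in old HSC and 19 to 32 in treated old HSC over all settings run, and 26 to 28 and 25 to 29 with 1 library left out. Against untreated old HSC none was called in any setting. The members that fell with age numbered 2 with library totals alone and with the length and GC trends removed. In treated old against young HSC they numbered 3 with library totals alone, 0 with DESeq2, 0 with no filter, 2 with at least 5 CPM in 3 libraries, and 0 to 1 with 1 library left out. Of the other mitosis genes, library totals alone gave 24 that rose and 13 that fell with age, and 20 and 14 in treated old against young HSC. The length and GC fit gave 66 that rose with age and 10 that fell in treated old against young HSC, where at least 5 CPM in 3 libraries gave 10 as well, as did leaving out young replicate 1 and old replicate 2. In treated against untreated old HSC, the other genes that rose numbered 3 with DESeq2, 2 with limma-voom, 3 with no filter, 3 with the replicate block, 3 with the 2 groups alone, 4 with the length and GC fit, 2 without young replicate 1 and old replicate 2, and 0 to 3 with 1 library left out. Those that fell numbered 1 with no filter, with the 2 groups alone and without both of those libraries, and 0 to 1 with 1 library left out. For most of these settings the share of all genes called is not given, so these counts cannot be set against a background. In treated against untreated old HSC that share is given for the main fit only. For the shifts between settings the cause was not tested.

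No member past the threshold changed sign in that comparison, and no gene chosen by rule did so in the comparison for which it was chosen. Of the members that did not pass, 6 of 12 changed sign with age under some setting (Anln, Bub1b, Cenpf, Incenp, Mad2l1 and Ttk, between -0.13 and 0.36), 17 of 40 with treatment (between -0.11 and 0.09), and 3 of 11 in treated old against young HSC (Incenp, Mad2l1 and Ttk, between -0.06 and 0.34). Of the named genes' values, 28 dropped below the threshold and 7 passed it under some setting, and 931 kept their side. Deviations of same-numbered libraries correlated at -0.155 to 0.183, and those of differently numbered ones at -0.168 to 0.149. With 3 libraries a group these values cannot decide whether the replicate numbers pair the libraries. With the replicate block 28 members rose and 1 fell with age, 28 and 1 in treated old against young HSC, and none with treatment, and the counts of members moved by no more than 1. Depth was enough to test all 40 members, and 3 libraries a group limit the precision.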
